A study of Mus musculus with 6 samples.

Results

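The 10 genes of the core circadian clock loop were followed in the hippocampus of mice that drank the antidepressant venlafaxine, an inhibitor of serotonin and noradrenaline reuptake. They were picked by symbol, not by value: the activators Clock, Npas2 and Arntl (the gene of BMAL1), the repressors Per1, Per2, Per3, Cry1 and Cry2, and the REV-ERB receptor genes Nr1d1 and Nr1d2. They are 10 of the 18193 genes that the arrays name, and all 10 passed the filter on dim genes that left 11743 genes for testing. Together they have 23 probe sets, of which the brightest of each gene gave its main value and the others served as a check. Values are the authors' RMA expression on the log2 scale, on which a difference of 1 is a doubling, and levels of different probe sets cannot be set against each other.

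The study took male DBA/2 mice, single housed under a 12 h light-dark cycle, that received venlafaxine in drinking water for 30 days at 0 mg per kg per day (control), 30 mg per kg per day (low dose) or 100 mg per kg per day (high dose). Each dose group held 10 animals, and hippocampal material was pooled by side into 1 left and 1 right pool, giving 2 arrays per group and 6 in all. The labels leave unsaid whether a group's left and right pools hold tissue of different mice, so the p-values measure only the spread between pools. That spread was drawn partly from all genes. In the main fits with date or side it was 1 value shared by every gene, not each gene's own. The 2 low dose arrays and 1 array each of control and high dose were hybridized on a first date, and the other control and high dose arrays on a later date. The first-date arrays are control 1 (right), low dose 1 (right), low dose 2 (left) and high dose 1 (left), and the later-date arrays are high dose 2 (right) and control 2 (left). RNA integrity numbers were 8.2 and 7.9 on the later date and 8.5 to 9.1 on the first date, so date and RNA quality cannot be told apart. The hour at which the animals were killed is not given in the sources used here, and a clock transcript's level depends on it. In pooled tissue, fewer cells of a type and less RNA per cell cannot be told apart.

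As background, CLOCK or its paralogue NPAS2 pairs with BMAL1, and the pair binds E-box motifs and activates the Per, Cry and REV-ERB genes. PER and CRY proteins then bind and inhibit the same pair, and the REV-ERB receptors repress Arntl through elements that the ROR receptors activate. The hippocampus carries this loop outside the master clock of the suprachiasmatic nucleus. NPAS2 is the forebrain paralogue of CLOCK, and Per1 also responds to neuronal signals through CREB.

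Promoter windows of 300 bases, 250 before and 50 after an annotated start, were held for 9 of the 10 members, 13 windows in all, in the RefSeq set of mouse build GRCm38.p6; Per2 had none there. They were searched on both strands for the motifs of the loop itself: the E-box CACGTG, its variant CACGTT, the D-box TTATGTAA or TTACGTAA, the ROR and REV-ERB element core TAGGTCA, the full CRE TGACGTCA, and TGACG, which lies within the full CRE. These motifs occurred in 7.15%, 4.68%, 1.06%, 2.61%, 1.79% and 20.8% of the 32851 windows of the whole set, in that order. The windows printed here are shown as examples of the motif kinds found: the receptor element in Arntl, the E-box in Per1 and Cry1, the D-box in Per3, and TGACG alone in the second Per1 window. Matches are in capitals and bases are written 5′ to 3′ along the gene. They are the second Arntl window (chr7:113207261-113207560, plus strand), both Per1 windows (chr11:69098699-69098998 and chr11:69099902-69100201, plus strand), the Per3 window (chr4:151044616-151044915, minus strand) and the Cry1 window (chr10:85185005-85185304, minus strand).
Arntl, window 2: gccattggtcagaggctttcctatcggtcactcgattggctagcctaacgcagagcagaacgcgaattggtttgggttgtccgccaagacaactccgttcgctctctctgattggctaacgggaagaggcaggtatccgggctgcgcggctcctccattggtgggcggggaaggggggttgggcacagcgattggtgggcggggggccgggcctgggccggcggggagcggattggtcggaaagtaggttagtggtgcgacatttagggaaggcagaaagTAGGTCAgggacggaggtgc
Per1, window 1: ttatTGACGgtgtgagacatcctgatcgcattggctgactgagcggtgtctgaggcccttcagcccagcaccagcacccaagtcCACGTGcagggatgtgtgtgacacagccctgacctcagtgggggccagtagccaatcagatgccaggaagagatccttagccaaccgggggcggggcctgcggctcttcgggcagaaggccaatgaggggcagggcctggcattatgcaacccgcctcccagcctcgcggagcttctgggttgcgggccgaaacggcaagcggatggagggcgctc
Per1, window 2: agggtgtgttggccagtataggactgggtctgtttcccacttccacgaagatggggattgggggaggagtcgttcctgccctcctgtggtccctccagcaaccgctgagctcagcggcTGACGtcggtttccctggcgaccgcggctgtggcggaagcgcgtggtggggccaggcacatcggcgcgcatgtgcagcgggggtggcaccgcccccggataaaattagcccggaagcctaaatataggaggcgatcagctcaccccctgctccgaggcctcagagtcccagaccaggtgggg
Per3: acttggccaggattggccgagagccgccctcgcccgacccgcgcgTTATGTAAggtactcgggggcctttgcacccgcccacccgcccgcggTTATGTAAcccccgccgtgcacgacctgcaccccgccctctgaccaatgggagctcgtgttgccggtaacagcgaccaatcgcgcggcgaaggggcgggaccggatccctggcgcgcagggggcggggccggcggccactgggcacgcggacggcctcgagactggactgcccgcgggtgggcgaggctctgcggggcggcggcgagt
Cry1: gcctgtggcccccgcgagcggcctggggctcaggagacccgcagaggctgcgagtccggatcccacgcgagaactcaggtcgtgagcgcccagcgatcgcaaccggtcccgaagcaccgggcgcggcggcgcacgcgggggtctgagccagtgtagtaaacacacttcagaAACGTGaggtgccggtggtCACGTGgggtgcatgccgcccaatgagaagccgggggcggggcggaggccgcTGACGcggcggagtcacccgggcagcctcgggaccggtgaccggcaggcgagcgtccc
The Arntl window holds the receptor element core at position 31 after the start site. The first Per1 window holds an E-box at position -166 and TGACG at -246, and the second holds TGACG at -132. The Per3 window holds the D-box TTATGTAA at -205 and again at -158, and the Cry1 window holds an E-box at -60, the E-box variant at -79 and TGACG at -8. The Cry2 window holds the E-box variant at -166 and TGACG, read on the other strand, at -209, and the Nr1d1 window holds the E-box variant at -28. None of these letters occurred in the 3 Clock windows, in the Npas2 and Nr1d2 windows or in the first Arntl window. Each match is a description of the letters in the window.

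At the high dose the 3 activator genes were lower than in control on every array, as was the repressor Per1, by 0.19 to 0.32 on the log2 scale, while the remaining repressors overlapped between the groups and the REV-ERB genes lay slightly higher. Npas2 differed most, at 1.25-fold lower, followed by Clock at 1.18-fold lower. No member passed the test across all genes (limma, adjusted p = 1.00 for each of the 10), in a comparison in which 0.00852% of all genes passed. The same held with hybridization date as a term (0.375% of all genes passed), where Npas2 had the lowest adjusted p of the members, at 0.106.

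**Figure D1:**
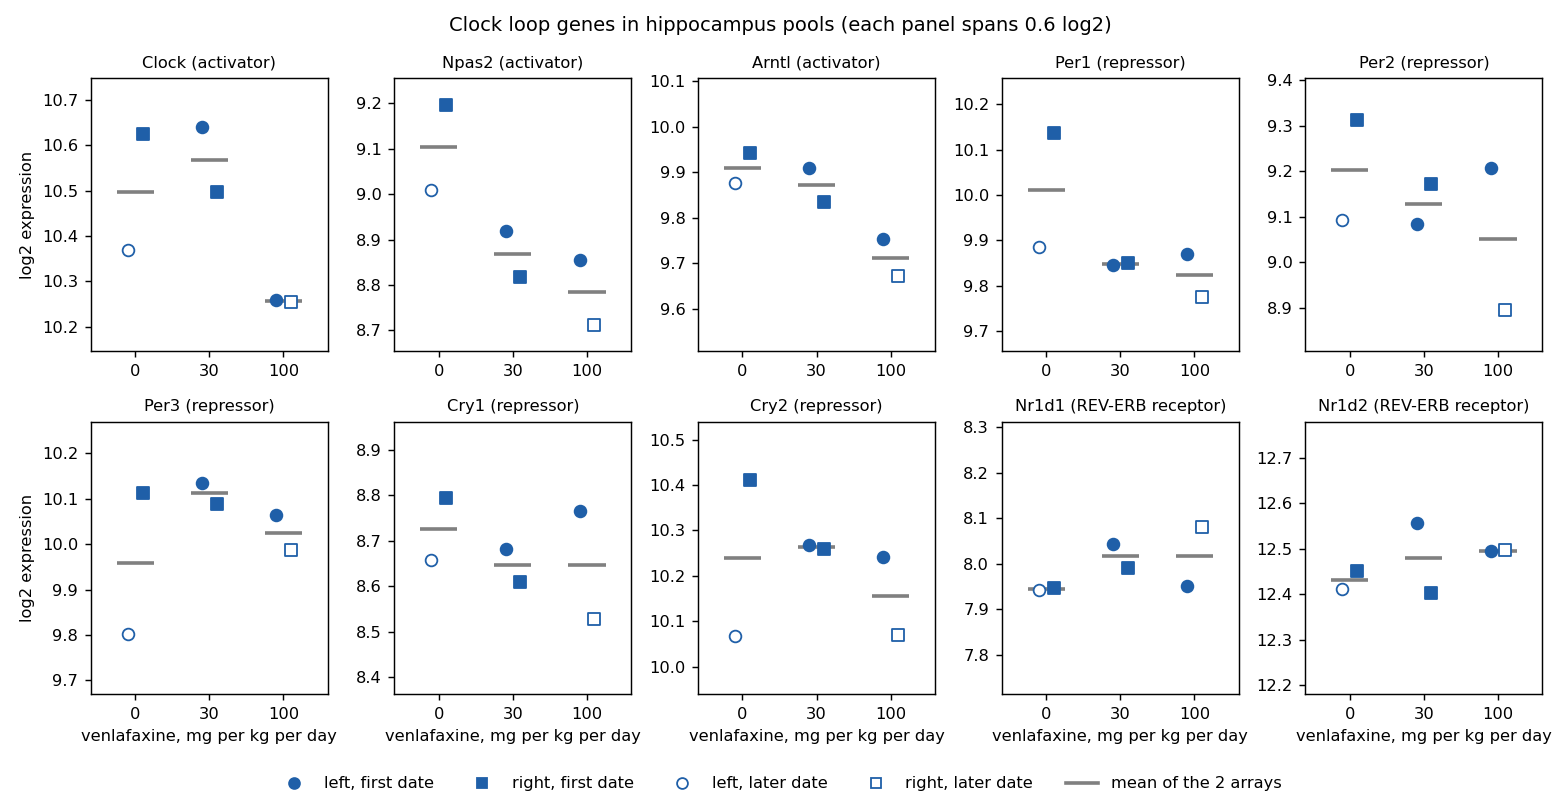
Log2 expression of the 10 members on each of the 6 arrays, by dose (0, 30 and 100 mg per kg per day), with each gene on its own axis, circles for left and squares for right pools, filled symbols for the first and open symbols for the later hybridization date, and grey bars at the group means. The 2 high dose arrays lie below all others for Clock and Arntl, and the 2 control arrays lie above all others for Npas2 and Per1.

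Among the activators, Clock, a DNA-binding partner of BMAL1, had values of 10.63 and 10.37 on the control arrays, 10.50 and 10.64 on the low dose arrays and 10.26 and 10.25 on the high dose arrays. Both high dose arrays were the lowest of the 6, and the low dose and control arrays overlapped. The mean was 10.26 ± 0.0036 at the high dose and 10.50 ± 0.18 in control (SD, n = 2 each), a difference of -0.24 (SE 0.108, 95% interval -0.46 to -0.018, limma unadjusted p = 0.0356). Npas2, which can take CLOCK's place beside BMAL1, had values of 9.20 and 9.01 in control, 8.82 and 8.92 at the low dose and 8.85 and 8.71 at the high dose. Both control arrays lay above all 4 arrays of treated animals, and the high and low dose arrays overlapped. Its difference between high dose and control was -0.32 (SE 0.106, 95% interval -0.54 to -0.10, limma unadjusted p = 0.00606), at percentile 0.468 of the differences of all genes tested. Arntl, whose product is the common partner of both, had values of 9.94 and 9.88 in control, 9.84 and 9.91 at the low dose and 9.75 and 9.67 at the high dose. As for Clock, the high dose arrays were the lowest of the 6 and the other groups overlapped. The difference was -0.20 (SE 0.101, 95% interval -0.41 to 0.011, limma unadjusted p = 0.0623).

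Among the repressors, Per1, a period gene that is also induced rapidly by neuronal activity, had values of 10.14 and 9.88 in control, 9.85 and 9.85 at the low dose and 9.87 and 9.78 at the high dose. The control array of the first date stood apart at the top, and the later control array lay just above the nearest treated array. The difference between high dose and control was -0.19 (SE 0.107, 95% interval -0.41 to 0.033). Per2, the period gene whose protein carries CRY into the nucleus, had values of 9.31 and 9.09 in control, 9.17 and 9.08 at the low dose and 9.21 and 8.90 at the high dose. All 3 groups overlapped, and the lowest array was the high dose array of the later date. Its difference at the high dose was -0.15 (SE 0.114, 95% interval -0.39 to 0.085).

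Per3, a period gene not needed for the rhythm itself in mice, had values of 10.11 and 9.80 in control, 10.09 and 10.14 at the low dose and 10.06 and 9.99 at the high dose. The later control array was the lowest of the 6, and the high dose mean lay 0.067 above the control mean (SE 0.110, 95% interval -0.16 to 0.29). The cryptochromes, which inhibit the activator pair directly, overlapped between high dose and control and between low dose and control. Cry1 had values of 8.79 and 8.66 in control, 8.61 and 8.68 at the low dose and 8.77 and 8.53 at the high dose, and Cry2 had 10.41 and 10.07 in control, 10.26 and 10.27 at the low dose and 10.24 and 10.07 at the high dose. The differences between high dose and control were -0.080 for Cry1 (SE 0.108) and -0.083 for Cry2 (SE 0.114), each with a 95% interval that included 0.

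The REV-ERB receptor genes had the narrowest ranges over the 6 arrays. Nr1d1 had values of 7.95 and 7.94 in control, 7.99 and 8.04 at the low dose and 7.95 and 8.08 at the high dose, close to the median of all probe sets on each array (7.79 to 7.80). Nr1d2 had values of 12.45 and 12.41 in control, 12.40 and 12.56 at the low dose and 12.49 and 12.50 at the high dose. Both genes had high dose arrays above both control arrays, by differences of the means of 0.072 for Nr1d1 (SE 0.101, 95% interval -0.14 to 0.28) and 0.065 for Nr1d2 (SE 0.102, 95% interval -0.15 to 0.28), below 1 SE in each case. For Nr1d1 the lower high dose array lay only 0.0048 above the higher control array.

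Read over the loop, 7 of the 10 members had a difference between high dose and control below 0, as did 64.1% of all genes tested. In 4 of 10 the groups did not overlap with the high dose lower, against 18.7% of all genes, and in 2 of 10 they did not overlap with the high dose higher, against 8.03%. The median over the members was -0.12, with -0.24 for the 3 activators, -0.083 for the 5 repressors and 0.068 for the 2 REV-ERB genes, while the median over all genes was -0.03. An unadjusted limma p under 0.05 was reached by 2 of 10 members, Clock and Npas2, and by 2.76% of all genes. The high dose arrays were the 2 lowest of the 6 for Clock and Arntl, a pattern found in 10.5% of all genes.

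**Figure D2:**
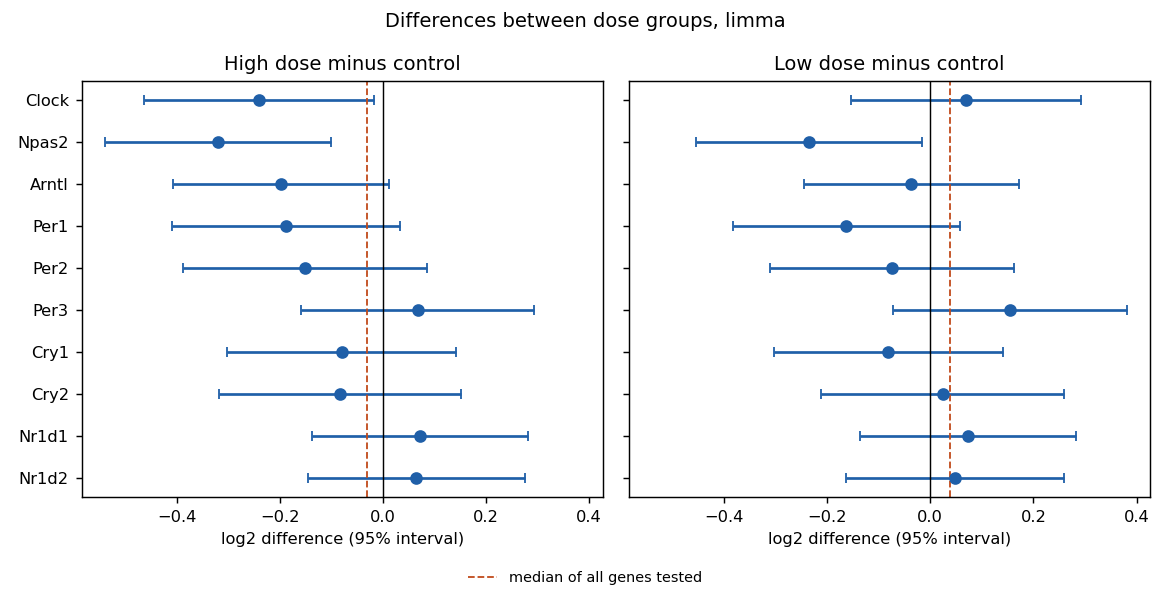
Difference in log2 expression of each member with its 95% limma interval (points and bars), high dose minus control on the left and low dose minus control on the right. The dashed line marks the median of all genes tested, and the intervals of Clock and Npas2 at the high dose and of Npas2 at the low dose lie below 0.

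The comparison was also made between arrays of the same date and between arrays of the same side, where each value is a plain difference of 1 array from 1 array. Within dates, 6 of 10 members (Clock, Npas2, Arntl, Per1, Per2 and Cry1) were lower at the high dose both times, against 34% of all genes. Npas2 differed by -0.30 on the later date and by -0.34 on the first, and Arntl by -0.21 and -0.19, so their differences were alike on both dates. Clock differed by -0.12 on the later date and by -0.37 on the first, and Per1 by -0.11 and -0.27. Within sides the members' median was 0.046 between the left arrays and -0.31 between the right arrays. The median of all genes was 0.026 between the left and -0.087 between the right arrays. Npas2 differed by -0.15 on the left and -0.48 on the right, and Per1 by -0.015 on the left and -0.36 on the right. In each side-matched pair the hybridization dates also differ, with the high dose array the earlier one on the left and the later one on the right, so side, date and their combination cannot be told apart there.

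**Figure D3:**
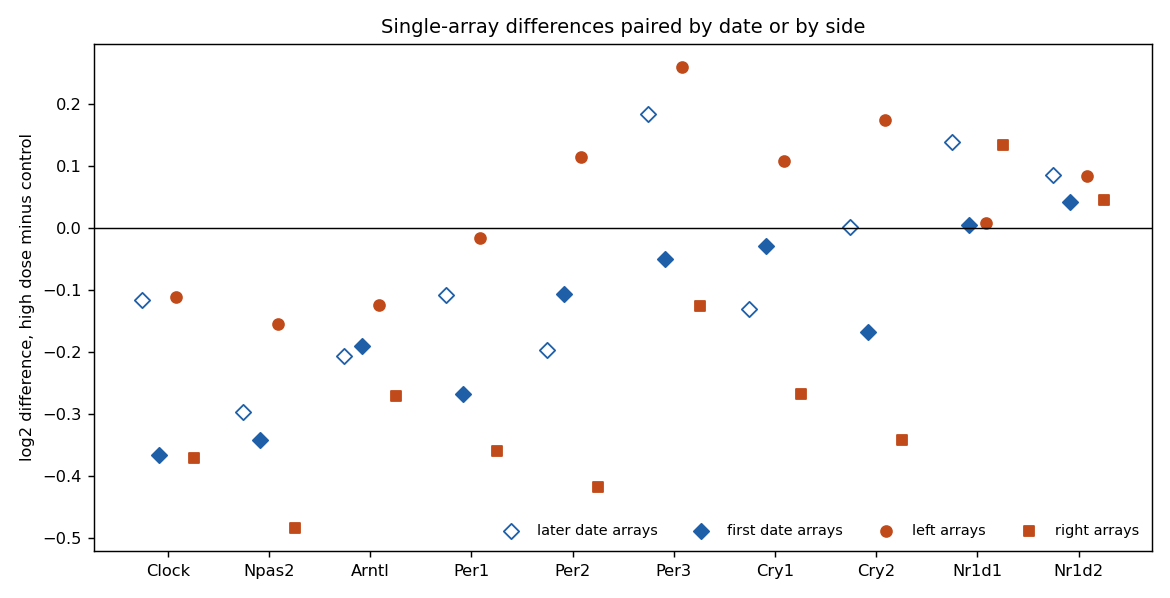
Plain log2 differences of single arrays for each member, high dose minus control, between arrays of the same date and between arrays of the same side. The date-matched differences of Npas2 and Arntl nearly coincide, whereas the side-matched differences of Per2, Per3, Cry1 and Cry2 have opposite signs.

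Against control, the low dose gave a smaller set of differences, led again by Npas2. Npas2 averaged 8.87 ± 0.072 at the low dose and 9.10 ± 0.13 in control (SD, n = 2 each), a difference of -0.24 (SE 0.106, 95% interval -0.45 to -0.016, limma unadjusted p = 0.0363). Per1 averaged 9.85 ± 0.0029 at the low dose and 10.01 ± 0.18 in control, a difference of -0.16 (SE 0.107, 95% interval -0.38 to 0.058). These were the only 2 of 10 members with low dose arrays below both control arrays, against 7.78% of all genes, and both control arrays lay above all 4 treated arrays in the same 2, against 4.39%. Nr1d1 alone had both low dose arrays above control, at a difference of 0.072 (13.4% of all genes lay higher in this way). The other differences were 0.070 for Clock, -0.037 for Arntl, -0.074 for Per2, 0.15 for Per3, -0.081 for Cry1, 0.024 for Cry2 and 0.048 for Nr1d2, each with a 95% interval that included 0. No member passed the test (limma, adjusted p = 1.00 for each), where 0.0426% of all genes did, and an unadjusted p under 0.05 was reached by 1 of 10 members and 3.32% of all genes. Of the 10 members 5 had a difference below 0, against 32.4% of all genes, and the members' median was -0.0063, against 0.038 over all genes. Both comparisons with control share its 2 arrays, so the values of Npas2 and Per1 at either dose are not independent.

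Because both low dose arrays were hybridized on the first date, the low dose was also set against the control array of that date alone. Both low dose arrays lay below it in 6 of 10 members, against 35.2% of all genes. The difference of the low dose mean from this array was -0.33 for Npas2, -0.29 for Per1 and -0.18 for Per2. For Clock it was -0.057 and for Per3 -0.0011, so Per3's higher low dose mean rested on the later control array.

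Between the high and the low dose, which are 2 doses of the same compound given for the same time, Clock differed most. It averaged 10.26 ± 0.0036 at the high dose and 10.57 ± 0.10 at the low dose (SD, n = 2 each), a difference of -0.31 (SE 0.108, 95% interval -0.53 to -0.088, limma unadjusted p = 0.0083, adjusted p = 0.763). The second Clock probe set, bright on all 6 arrays, gave 0.055 in the same comparison, while the remaining ones gave -0.24 and -0.15. The direction was thus not shared by all Clock probe sets. Arntl differed by -0.16 (SE 0.101), Cry2 by -0.11 (SE 0.114) and Per3 by -0.087 (SE 0.110). The high dose arrays lay below both low dose arrays in these 4 of 10 members, against 37.3% of all genes, and 8 of 10 differences were below 0, against 77.2%. Both low dose arrays were of the first date, so dose and date are partly mixed here. With date as a term the differences were -0.25 for Clock, -0.12 for Arntl, -0.032 for Nr1d1 and -0.0019 for Npas2. They were above 0 for Cry2 (0.022), Per3 (0.0097), Per1 (0.061), Per2 (0.056), Cry1 (0.095) and Nr1d2 (0.026). Without that term, the differences of Npas2 (-0.084, 95% interval -0.30 to 0.13) and Per1 (-0.025, 95% interval -0.25 to 0.20) were small beside their differences from control. No gene passed this test in limma (0% of 11743), and an unadjusted p under 0.05 was reached by 1 of 10 members and 6.21% of all genes, 729 in number. Side by side over the doses 0, 30 and 100 mg per kg per day, the group means were 9.10, 8.87 and 8.78 for Npas2 and 10.01, 9.85 and 9.82 for Per1, whereas they were 10.50, 10.57 and 10.26 for Clock and 9.91, 9.87 and 9.71 for Arntl. In Npas2 and Per1 the high and low dose arrays overlapped, and in Clock and Arntl the low dose and control arrays overlapped.

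Of the 23 probe sets, 18 lay above the array median on at least 2 arrays. All 4 Clock probe sets did so, and all 4 were lower at the high dose on both dates, with differences from control of -0.24 for the main one and -0.15, -0.26 and -0.22 for the others. At the low dose 3 of the 4 were below control, with differences of -0.21, -0.020 and -0.063, while the main one gave 0.070, so no low dose direction can be given for Clock. The second probe sets of Npas2 and Arntl were below the array median on all 6 arrays and gave differences at the high dose of -0.016 and 0.15. The second Nr1d2 probe set, equally dim, gave -0.059 where the main one gave 0.065. The second Per2 probe set gave 0.017 where the main one gave -0.15, and the direction for Per2 rests on the choice of probe set. The 5 bright Per3 probe sets gave high dose differences between -0.094 and 0.087. One of them stood at 8.92 on the later high dose array and between 8.24 and 8.54 on the other 5 arrays, a high value on a single array that no other Per3 probe set showed. Per1, Cry1, Cry2 and Nr1d1 have 1 probe set each and no such check.

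**Figure D4:**
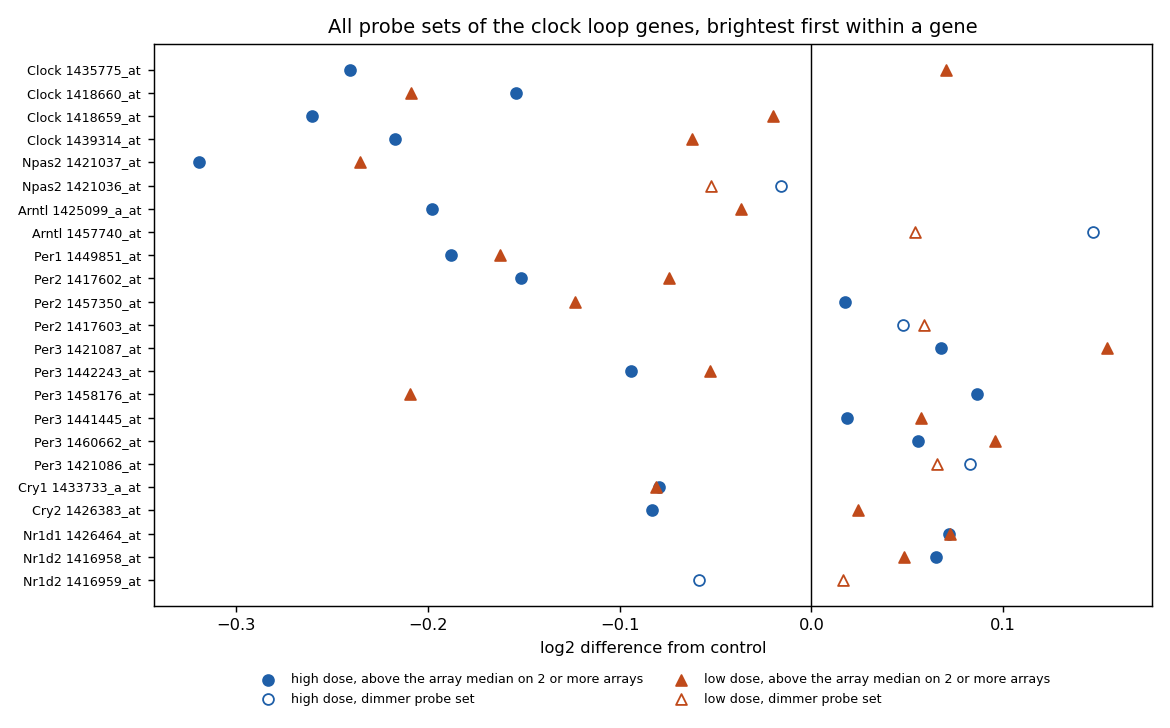
Log2 difference from control of each of the 23 member probe sets, brightest first within a gene, at the high dose (circles) and the low dose (triangles), with open symbols for probe sets not above the array median on at least 2 arrays. All 4 high dose points of Clock lie below 0, while those of Per2, Per3, Arntl and Nr1d2 fall on both sides of 0.

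By hybridization date, the Per and Cry genes stood lowest on the later date. With dose group as a term, Per2 differed by -0.27 between the later and the first date (SE 0.0923, adjusted p = 0.0532 in limma), and Cry2 differed by -0.26 (SE 0.0923, adjusted p = 0.0626). Neither passed 0.05, while 6.97% of all genes did, and with each array centred on its median both passed (0.0350 for Per2 and 0.0418 for Cry2). The second bright Per2 probe set gave a date difference of 0.030, so the direction for Per2 turns with the probe set, and Cry2 has 1 probe set. For Clock the second probe set likewise gave 0.12, against -0.13 from the main one. Per3 (-0.19), Cry1 (-0.19), Per1 (-0.17), Npas2 (-0.16), Clock (-0.13 from its main probe set), Arntl (-0.074) and Nr1d2 (-0.019) lay lower on the later date as well, 9 of 10 members against 68.9% of all genes, and Nr1d1 lay higher by 0.063. An unadjusted p under 0.05 was reached by 4 of 10 members and by 19.5% of all genes. Lower values on the later date in both the control and the high dose pair occurred in 8 of 10 members, against 45.7% of all genes, and the members' median was -0.17 where that of all genes was -0.057. In Per2, Per3, Cry1 and Cry2, both later arrays lay below both first-date arrays of those dose groups, which held for 36.3% of all genes.

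No difference between left and right pools was detected in these genes. With dose group as a term, differences of left from right pools ran from -0.063 for Per3 to 0.058 for Cry1, each with an SE of 0.107, and every 95% interval included 0. No member had the left pool higher, or lower, than the right pool in all 3 dose groups, patterns found in 3.88% and 3.72% of all genes. No gene passed this test in limma (0% of 11743), and an unadjusted p under 0.05 was reached by none of the 10 members and by 0.341% of all genes, 40 in number.

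The other genes of the clock pathway were taken from lists, and none of those tested passed the test at either dose without a term for date. The ROR receptors, which activate Arntl against the REV-ERB receptors, were represented by Rora and Rorb, both lower on each high dose array than in control, with differences of -0.14 for Rora and -0.20 for Rorb. Rora is also a marker on the thalamic list and Rorb on the neocortical list of the tissue markers. Among Dbp, Tef, Hlf and Nfil3, the output regulators that bind D-boxes, 3 of 4 differences were below 0 at the high dose (64.1% of all genes). Nfil3, the repressor of that group, had values of 8.76 and 8.63 in control, 8.51 and 8.47 at the low dose and 8.38 and 8.06 at the high dose. Its 3 groups did not overlap, and its difference at the high dose was -0.48 (limma adjusted p = 0.353, and 0.000242 with hybridization date as a term). Dbp, the activator of that group and an E-box target of CLOCK and BMAL1, had values of 11.60 and 11.40 in control, 11.51 and 11.73 at the low dose and 11.79 and 11.62 at the high dose. Both high dose arrays lay above control, with a difference of 0.21 (adjusted p = 1.00).

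Of 6 measured partners, 3 were below 0 at the high dose (64.1% of all genes). Bhlhe40, a repressor that competes at E-boxes, had 10.81 and 10.64 in control, 10.64 and 10.66 at the low dose and 10.39 and 10.42 at the high dose, a difference from control of -0.32 (adjusted p = 1.00, and 0.106 with date as a term). Ciart, a repressor of the activator pair, differed by 0.18 with both high dose arrays above control. At the low dose Tipin (0.17) and Arntl2 (0.083) lay farthest from 0 among the partners, each with groups that overlapped. Of 15 kinases, phosphatases and ubiquitin enzymes of the clock pathway, 13 were below 0 at the high dose (64.1% of all genes), led by Csnk1e (-0.15) and Fbxw11 (-0.13). At the low dose 5 were below 0 (32.4% of all genes), with Usp2 (0.33) and Ppp1ca (0.20) the farthest from 0. Of 13 chromatin factors and coregulators, 12 were below 0 at the high dose (64.1% of all genes), led by Kmt2a, a histone methyltransferase that works with CLOCK (-0.39, adjusted p = 0.85, and 0.0133 with date as a term), and Ppargc1a (-0.25). At the low dose Kmt2a differed by -0.16 and Nono by 0.15. The medians at the high dose were -0.072 for the kinase and ligase list and -0.058 for the coregulators, beside -0.03 for all genes. Between the later and the first date, 1 gene of the kinase and ligase list passed as higher and 4 as lower. Among the coregulators 1 passed as lower, where 6.97% of all genes passed in either direction.

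Markers of tissue and of neuronal activity were set beside the members on the same arrays. Without a term for date, no hippocampal, striatal, neocortical, thalamic, choroid plexus or oligodendrocyte marker passed the test at either dose. With that term, 2 striatal markers and 1 neocortical marker passed at the high dose, where 44 of all genes did. At the low dose 3 neocortical and 2 choroid plexus markers passed with it, where 21 of all genes did. All 12 hippocampal neuron markers passed the filter, and 10 of 12 lay above control at the high dose (median 0.075) and 10 of 12 at the low dose (median 0.18). At the high dose their median was 0.22 on the later date and -0.067 on the first. At the low dose it was 0.36 between the left arrays, where the control array was of the later date. Between the right arrays, both of the first date, it was -0.020. Of all 11743 genes, 4216 lay above control at the high dose and 7934 at the low dose. Of 14 oligodendrocyte markers 12 were tested, and all 12 lay above control at the low dose (median 0.31), 11 without overlap (13.4% of all genes). All 12 lay lower at the high than at the low dose (median -0.31), as did 77.2% of all genes. In that comparison the main Clock probe set differed most among the members. Of 12 striatal markers 9 were tested, and all 9 were lower at the high dose than in control, with a median difference of -0.31. Of 10 neocortical markers 9 were tested and all 9 were lower, with a median of -0.21, where 64.1% of all genes were lower. The mean level of the striatal list was 9.54 and 9.76 in control, 9.49 and 9.62 at the low dose and 9.47 and 9.29 at the high dose, and that of the neocortical list 9.99 and 9.91 in control, 9.66 and 9.90 at the low dose and 9.76 and 9.70 at the high dose. The thalamic list had 5 of 8 below 0 at the high dose (64.1% of all genes), with a median of -0.057. On the later date the striatal median was -0.46 and the neocortical median -0.29, beside -0.30 for Npas2, -0.12 for Clock and -0.21 for Arntl. On the first date the striatal median was -0.073 and the neocortical median -0.20, beside -0.34 for Npas2, -0.37 for Clock and -0.19 for Arntl. Over all genes the median was 0.023 on the later date and -0.085 on the first. The part of these tissue markers in the members' values was not tested. Averaged over both dates, all 13 tested markers of choroid plexus lay above 0 at the high dose, as did 4216 of all 11743 genes. The choroid plexus median was 0.55 on the later date and -0.13 on the first, so its direction differed between the dates. Immediate early genes report recent neuronal activity and share the CREB route with Per1. Their mean level was 10.21 and 10.20 in control, 9.71 and 9.79 at the low dose and 9.79 and 9.71 at the high dose. Among them 9 of 10 were below 0 at the high dose (64.1% of all genes) and 10 of 10 at the low dose (32.4%). Of these, Egr2 fell at the high dose (-0.84, limma adjusted p = 0.00226), and Egr2, Egr1, Arc and Fos fell at the low dose (-0.93, -0.67, -0.65 and -0.61, adjusted p between 0.000394 and 0.0193). Npas2 and Per1 share their control-high pattern, and the part of activity in it was not tested. Of 8 suprachiasmatic and hypothalamic markers, Nms had no probe set, and Prok2, Six6 and Hcrt did not pass the filter. Avp rose at the low dose (0.96, limma adjusted p = 0.0193), unevenly, with 9.32 and 8.40 against 7.80 and 8.00 in control. At that dose Pmch differed by 0.38 and Oxt, whose groups overlapped, by 0.17. Vip lay below both control arrays at either dose, by -0.14 at the low and -0.15 at the high dose.

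The genes whose values ran most like those of the 3 most variable members over the 6 arrays were Ip6k1, Ncoa5 and Mrps6 for Clock (Pearson r 0.995 each), Dctd, Smarca1 and Sfxn3 for Npas2 (0.994, 0.994 and 0.990), and Kif16b, Sh3bp1 and Hcn3 for Per2 (0.985, 0.979 and 0.969). With 6 arrays such values are common: 937 genes had r above 0.9 with Clock, 168 with Npas2 and 119 with Per2, of 11742 each, and all share dose, date and pool.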

How the data were processed

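Hippocampal RNA pools of 3 dose groups were measured on 6 Affymetrix arrays. Per the labels' protocols, 100 ng of RNA per array was labelled with an IVT Express kit, and the authors ran RMA under R 3.0.1, per the submitters' processing notes. The deposited table gives 45101 probe sets, and the log2 unit of the authors' RMA output was inferred from the values, 6.10 to 15.31. Array count, not depth, limits precision. Probe sets with exactly 1 symbol in the platform annotation (34945) gave 18193 genes, each by its probe set of highest mean, and genes above the array median on at least 2 arrays (11743) were tested with limma 3.58.1 in R 4.3.3 (lmFit on dose group over all 6 arrays, eBayes, Benjamini-Hochberg, threshold 0.05). The code was tested on simulated data. The members and lists were chosen with earlier results of these data known. Other pathway genes were named if past the threshold in a dose or side comparison, or among the 2 with the largest difference per list and dose. Those past it between dates were counted and not named. Replicate numbers mark the date in control and high dose only (correlation of deviations 0.540, against 0.0765 and 0.133 with low dose), so they were not taken to pair the samples. Alternatives changed the probe set, filter, normalization, eBayes settings, replicates, and added date, side, replicate number or RNA integrity terms. Promoter windows came from RefSeq (GRCm38.p6); protein sequences were not used here.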

Additional observations from a re-analysis of the deposited data

Results flagged for a closer look

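Because left and right arrays were compared with a single control array of their side, a member's difference could be above 0 on the left and below 0 on the right. At the high dose this was so for 4 of 10 members, given here as the left difference from control minus the right one. The value was 0.533 for Per2 (left 0.11, right -0.42), 0.517 for Cry2 (left 0.18, right -0.34), 0.386 for Per3 (left 0.26, right -0.13) and 0.375 for Cry1 (left 0.11, right -0.27). At the low dose it was so for 6 of 10 members. The value was 0.398 for Clock (left 0.27, right -0.13), 0.357 for Per3 (left 0.33, right -0.024), 0.351 for Cry2 (left 0.20, right -0.15), 0.211 for Cry1 (left 0.025, right -0.19), 0.196 for Nr1d2 (left 0.15, right -0.050) and 0.140 for Arntl (left 0.034, right -0.11). None of these differences was tested, since each side has 1 array per dose. The left and right control arrays also differ in hybridization date and are shared by both doses, so side and date cannot be told apart.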

How the results depend on the processing

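No member passed the threshold in the dose or side comparisons under any setting except Npas2 without control replicate 2 (high dose against control, -0.41, adjusted p = 0.0455, with 178 genes then passing), so members passing ran from 0 to 1 over left-out arrays. Between the later and the first date, Cry2 passed with probe sets averaged per gene (0.0339), the second probe set (0.0437) and quantile normalization (0.0487), 1 member each. Cry2 has 1 probe set, so its own values were unchanged under averaging and under the second probe set. Only the other genes of those fits differed. Per2 and Cry2 passed, 2 members, without a filter (0.0375 and 0.0458) and with median centring (0.0350 and 0.0418). The members' median for high dose against control ran from -0.24 to 0.0039 over left-out arrays and was 0.046 on left and -0.31 on right arrays, -0.054 with probe sets averaged and -0.071 with quantile normalization. For low dose against control it ran from -0.11 to 0.053 over left-out arrays and was -0.16 with RNA integrity as a covariate, -0.11 on the first date only and against that date's control, and -0.13 on right arrays. For high against low dose it was 0.016 with a date block, 0.016 with side and date, 0.098 with RNA integrity, -0.00070 with the second probe set and -0.0016 with quantile normalization. For left against right it ran from -0.049 to 0.077 over left-out arrays, and for later against first date it was -0.055 with the mean of probe sets. The cause of these shifts was not tested. With the replicate block, members' medians stayed at -0.12, -0.0063 and -0.081 for the high dose, the low dose and high against low, and no member passed (lowest adjusted p 0.735, 0.976 and 0.267), while 10, 32 and 45 genes passed against 1, 5 and 0 without it. It changed no other call of a member. Over all genes, high dose against control gave 0 to 178 calls over the settings and low dose 0 to 546, and the date comparison gave 154 calls without either control array against 818. All of the members' single values were short of the threshold in the main fits. Their sign changed in 8 of 184 settings-by-member values for the high dose and 21 of 184 for the low dose. It changed in 31 of 184 for high against low, 23 of 134 for side and 7 of 144 for date. The stricter filter and the second probe set left 7 members each.
With 2 pooled arrays per group the intervals are wide (Per3 at the high dose, -0.16 to 0.29), so differences within them were not detectable, and Nr1d1 lies near the array median.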
